A study of Mus musculus with 6 samples.

Results

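The 10 genes described here encode C-type lectin receptors of myeloid cells: Clec4a1, Clec4a2, Clec4a3, Clec4d, Clec4e, Clec4n, Clec7a, Clec9a, Clec10a and Clec12a. They were chosen by name and make up 10 of the 20882 genes in the deposited count tables. The tables come from live CD45+ lung leukocytes of mice labelled as a humanized PD-1 model, 6 to 8 weeks old, given either a PD-1 agonist or an isotype control. Both groups carry the humanized PD-1 background. PD-1 is an inhibitory receptor of T cells. The series title places the work in neutrophilic asthma, and the labels give no airway challenge for either group. For each treatment, 3 samples were pooled after cell hashing, in which tagged antibodies mark the sample of origin, and sequenced as 10x Genomics single-cell libraries.

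The sample titles give each of the 3 tables of a treatment as a mouse of its own, but the tables could not be taken as separate mice. Any 2 tables of the same treatment shared 35.9% to 42.5% of their cell barcodes, against 0.0469% to 0.201% for tables of different treatments, and no table used here assigns cells to mice. Each treatment was therefore counted as 1 library, with every barcode taken once, and no test between treatments was possible. Values of single tables are given only to show how far tables that share part of their cells differed. After the authors' filter and removal of doublets, 11272 cells of the agonist library and 10299 cells of the isotype library were kept, with a median of 2227.5 counts per cell in the agonist library and 2535 in the isotype library. The tables hold 21556545 to 25572101 counts each with agonist and 24867171 to 29749815 with isotype. Intervals below are 95% exact intervals and cover counting error only, not the spread between mice.

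C-type lectin receptors are surface proteins that read sugars, lipids and debris of microbes and dying cells. Some of them pass an activating signal through the kinase Syk and the adaptor Card9, either from a motif in their own tail or through the Fc receptor gamma chain, and drive inflammatory cytokines. Others carry an inhibitory motif that recruits phosphatases and restrains the same cells.

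Of the 10 genes, 9 lie on chromosome 6 in the GENCODE M21 annotation of GRCm38. The 6 genes named Clec4 followed by a letter occupy 368 kb at chr6:122921848-123289870. Clec12a, Clec9a and Clec7a occupy 130 kb at chr6:129342691-129472779, 6.05 Mb further on. Clec10a stands apart at chr11:70156197-70170834. Promoter windows of 250 bases before to 50 bases after the RefSeq start (GRCm38.p6) were found for 8 of the 10 genes. Clec4n and Clec10a had no entry. The windows were searched on both strands for GAGGAA, a core bound by the myeloid factor PU.1, for TTNNGCAA, a pattern of C/EBP factors, and for TGANTCA, a pattern of AP-1. The PU.1 core was present in 5 of the 8 windows, against 28.3% of 27025 mouse promoter windows, the C/EBP pattern in 2 of 8, against 10.8%, and the AP-1 pattern in 2 of 8, against 7.93%. These matches describe letters and are not binding sites. The 4 windows below were picked because their genes mark different cells in the results: Clec4d and Clec4e in neutrophils, Clec9a in dendritic cells and Clec12a across monocytes and macrophages. Capitals mark PU.1 and C/EBP matches, positions count from the start as 0, and all are written 5′ to 3′ on the strand of the gene.
Clec4d, chr6:123261857-123262156, plus strand: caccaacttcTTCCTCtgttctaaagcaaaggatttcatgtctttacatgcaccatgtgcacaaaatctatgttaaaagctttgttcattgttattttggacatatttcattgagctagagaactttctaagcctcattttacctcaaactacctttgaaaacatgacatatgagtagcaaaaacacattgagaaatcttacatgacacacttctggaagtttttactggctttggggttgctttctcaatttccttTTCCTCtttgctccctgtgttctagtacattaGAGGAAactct
Clec4e, chr6:123289822-123290121, minus strand: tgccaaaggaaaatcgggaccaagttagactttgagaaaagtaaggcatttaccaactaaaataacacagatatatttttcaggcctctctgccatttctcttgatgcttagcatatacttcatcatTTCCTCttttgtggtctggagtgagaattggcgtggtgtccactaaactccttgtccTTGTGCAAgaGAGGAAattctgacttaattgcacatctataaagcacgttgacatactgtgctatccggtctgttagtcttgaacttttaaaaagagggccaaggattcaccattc
Clec9a, chr6:129408612-129408911, plus strand: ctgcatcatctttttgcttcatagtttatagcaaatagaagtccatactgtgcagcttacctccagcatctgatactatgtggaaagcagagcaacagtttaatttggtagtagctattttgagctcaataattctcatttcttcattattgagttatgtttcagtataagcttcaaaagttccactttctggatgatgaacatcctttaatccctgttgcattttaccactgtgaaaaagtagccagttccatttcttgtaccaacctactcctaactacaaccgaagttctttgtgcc
Clec12a, chr6:129349994-129350293, plus strand: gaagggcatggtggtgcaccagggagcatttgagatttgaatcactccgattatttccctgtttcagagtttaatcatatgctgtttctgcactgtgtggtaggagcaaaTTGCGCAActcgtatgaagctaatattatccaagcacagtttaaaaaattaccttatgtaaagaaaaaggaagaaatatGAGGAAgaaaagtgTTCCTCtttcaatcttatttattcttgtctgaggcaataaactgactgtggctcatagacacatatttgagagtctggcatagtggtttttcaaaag
The neighbours Clec4d and Clec4e both held PU.1 matches, at -240, 7 and 39 in Clec4d and at -123 and -56 in Clec4e. Clec4e also held a C/EBP match at -66, and Clec12a one at -140 beside PU.1 matches at -61 and -47. The Clec9a window held none of the 3 patterns. The Clec12a window lies inside the longer GENCODE gene.

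Cells were grouped by clustering without the 10 genes, and clusters were named from marker lists that hold none of them. The finer clustering of monocytes, macrophages and dendritic cells and the naming thresholds were nevertheless chosen with the receptors' levels in view. Levels by class are therefore descriptions. Clustering and naming gave 10 myeloid and 4 lymphoid classes, each to be read as cells resembling the named type (neutrophil-like, cDC1-like and so on). A further 14 clusters stay unnamed. Some of them reached no list's score. Others reached a score but were set aside because they carried neutrophil, lymphocyte or endothelial genes among monocyte, macrophage and dendritic cells. The rest were led by mitochondrial genes or by genes of another class, or lay too close to another list. Neutrophils were the largest myeloid class, with 2399 agonist and 1951 isotype cells. In the same order, the interstitial macrophages had 466 and 534 cells, the classical monocytes 280 and 245, and the nonclassical monocytes 432 and 289. Among dendritic cells, type 1 conventional cells (cDC1) had 62 and 50 cells, type 2 conventional cells (cDC2) 178 and 148, migratory cells 138 and 133, and plasmacytoid cells (pDC) 168 and 123. Basophils had 146 and 117 cells. The alveolar macrophages, at 33 and 39 cells, were too few to compare between libraries. Levels below are the class's summed counts of a gene on the usual counts-per-million scale (CPM), over both libraries unless one is named, and are compared between classes within a gene, never between genes.

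All 10 genes had nearly all of their counts outside the lymphoid classes. The 4 lymphoid classes (T, NK and B cells and type 2 innate lymphoid cells) held 43.35% of all counts, yet at most 1.73% of the counts of any of the 10, the highest being Clec12a. Of 15127 features with at least 50 counts, 8.32% had 10% or less of their counts in lymphoid classes. The named myeloid classes held 57.8% (Clec4a2) to 86.4% (Clec4d) of each gene's counts, and the unnamed clusters most of the rest. The level in the highest class exceeded that in T, NK and B cells together by 60.2-fold for Clec12a to 325-fold for Clec4d. Clec9a is left out of this range because T, NK and B cells together held 3 counts of it.

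**Figure D1:**
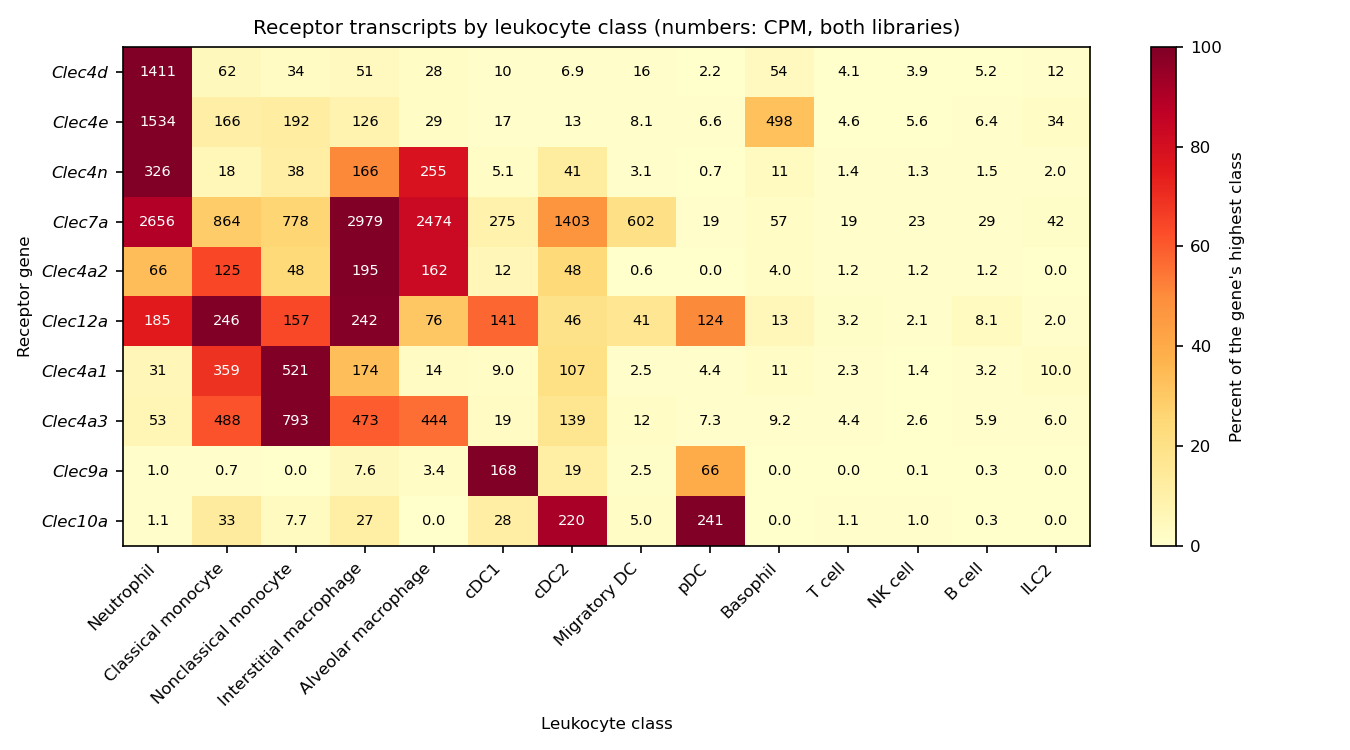
Level of each receptor gene (rows) in 14 leukocyte classes (columns), as CPM over both libraries; colour gives the percent of the highest class of that gene on a linear scale. Clec4d and Clec4e peak in neutrophils at 1411 and 1534 CPM, Clec9a in cDC1 at 168 CPM, and the lymphoid columns on the right are pale throughout.

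Clec4d encodes MCL (Dectin-3), which pairs with Mincle. Neutrophils held 81.2% of its counts, at 1411 CPM (1385 to 1437), and the unnamed clusters, some of which carried neutrophil genes, held 12.6%. The next classes were classical monocytes at 61.5 CPM (52.7 to 71.4), basophils at 54.0 CPM (38.8 to 73.3) and interstitial macrophages at 51.4 CPM (46.2 to 57.1), whose intervals overlap. After each cell was thinned to 1000 counts, 69.5% of neutrophils still had a Clec4d count, against 0.401% of T cells. The source of the T cell counts was not tested.

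Clec4e encodes Mincle, the receptor for the mycobacterial cord factor. Neutrophils had 1534 CPM (1507 to 1561) and 69.2% of its counts. The second class was not a monocyte but the basophil, at 498 CPM (449 to 551), ahead of nonclassical monocytes at 192 CPM (175 to 209), classical monocytes at 166 CPM (151 to 181) and interstitial macrophages at 126 CPM (118 to 135). The intervals of both monocyte classes overlap, and those of basophils and neutrophils stand apart from all others. A Clec4e count was found in 31.9% of basophils (26.4% to 37.9%), and in 19.5% after thinning, against 0.356% of T cells.

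The neutrophil marker list was read in basophils for comparison. Its 15 genes summed to 1799.6 CPM in basophils, against 114945 CPM in neutrophils, which is 1.57%. Mxd1 alone made up 1255.5 CPM of the basophil sum. It also made up 190.3 of the 363.7 CPM of the list in T, B and NK cells together, so it was not confined to neutrophils. The median marker stood at 0.357% of its neutrophil level, and Ly6g, one of the defining markers, had no count in basophils. S100a8 was at 0.184%, S100a9 at 0.25% and Retnlg at 0.178%. The highest were Mxd1 at 67.6%, the chemokine receptor gene Cxcr2 at 15.8% and the decoy receptor gene Il1r2 at 1.97%. Basophils had 32.5% of the neutrophil level of Clec4e, so 1 of the 15 markers, Mxd1, stood above it and 14 below. Lyz2, a lysozyme gene shared by neutrophils and macrophages, was at 17.2% of its neutrophil level in basophils (183.1 against 1062.2 CPM). Its highest class was the classical monocyte, at 16485.5 CPM. Clec4d, the neighbour and partner of Clec4e, stood at 3.83% of its neutrophil level in basophils, and Clec4n at 3.24%. T, B and NK cells together had 0.346% of the neutrophil level of Clec4e and 0.308% of that of Clec4d. The part of neutrophil RNA in the basophil level of Clec4e was not tested.

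**Figure D2:**
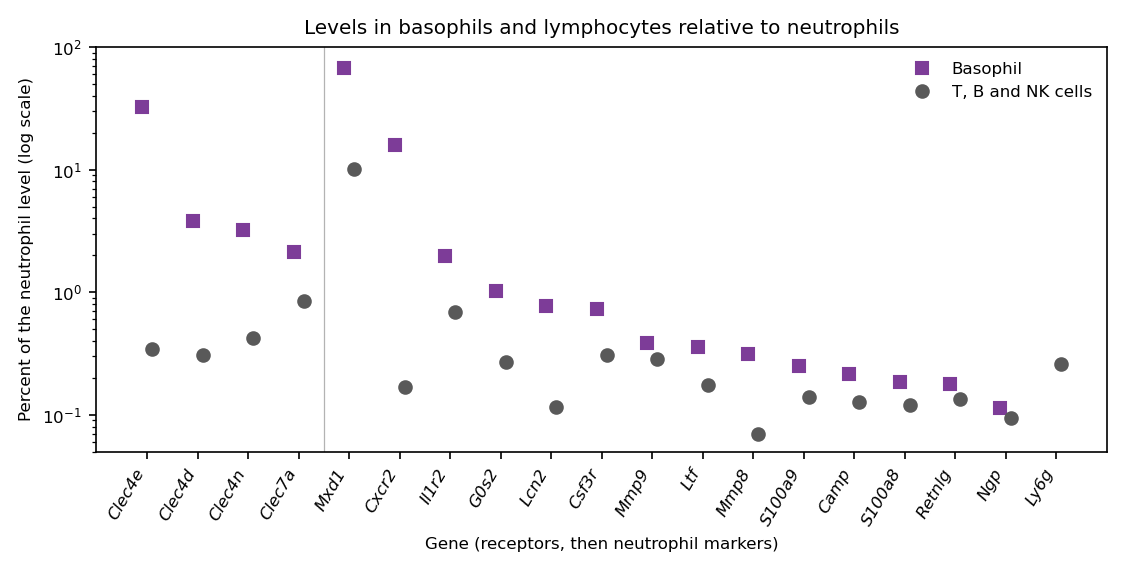
Level in basophils (squares) and in T, B and NK cells together (circles) as a percent of the neutrophil level of the same gene, on a log axis, over both libraries, for 4 receptors and, right of the line, the 15 neutrophil markers in the order of their basophil value. Clec4e stands at 32.5% in basophils and the markers run from 67.6% for Mxd1 to 0.113% for Ngp, with no square for Ly6g, which had no count there.

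Detection of the partner genes in single neutrophils was compared. After thinning, Clec4d was found in 72.0% (69.5% to 74.4%) of agonist neutrophils with a Clec4e count and in 67.9% (64.7% to 71.0%) of those without. In isotype neutrophils the shares were 71.8% (69.0% to 74.5%) with and 63.6% (59.9% to 67.1%) without. Over all neutrophils, the intervals overlapped in the agonist library and not in the isotype library. In the neutrophil cluster led by Retnlg, the isotype shares were 73.1% (69.3% to 76.8%) with and 65.2% (60.5% to 69.6%) without. In the cluster led by Il1a they were 71.1% (67.0% to 75.0%) with and 63.3% (57.0% to 69.3%) without. The agonist shares in the Retnlg-led cluster were 73.8% (70.7% to 76.7%) with and 72.2% (68.5% to 75.7%) without. In the Il1a-led cluster the agonist shares were 70.1% (65.5% to 74.4%) with and 60.3% (53.7% to 66.5%) without. Within both clusters the share was higher with a Clec4e count in both libraries, and the intervals overlapped. The overlap was narrow in Retnlg-led isotype and Il1a-led agonist cells, and overlap does not show that shares are equal. The part of the cluster mix in the pooled shares was not tested.

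Clec4n encodes Dectin-2, a receptor for fungal mannans. It was highest in neutrophils at 325.5 CPM (313 to 338), followed by alveolar macrophages at 255 CPM (215 to 299) and interstitial macrophages at 166 CPM (157 to 176). The 3 intervals do not overlap. Classical monocytes had 18.2 CPM (13.6 to 24.0), so Clec4n was lower in classical monocytes than in both macrophage classes.

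Neutrophils were not uniform for Clec4n. One neutrophil cluster, led by Retnlg and Stfa2l1, had 55.6 CPM (48.7 to 63.1) of Clec4n, and a second, led by Il1a, Il1rn and Csf1, had 706 CPM (678 to 735). Clec4e (1219 and 2040 CPM), Clec7a (2263 and 3402 CPM) and Clec12a (126 and 258 CPM) were also higher in the Il1a-led cluster, while Clec4d was near level at 1452 and 1485 CPM with overlapping intervals. A small further cluster led by the granule genes Ngp, Camp and Ltf, typical of immature neutrophils, had less Clec4d (303 CPM), Clec4e (643 CPM) and Clec7a (538 CPM). Clec4a2, at 185 CPM (144 to 233), was higher there than in both larger clusters, which had 73.6 CPM (Retnlg-led) and 42.3 CPM (Il1a-led).

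**Figure D3:**
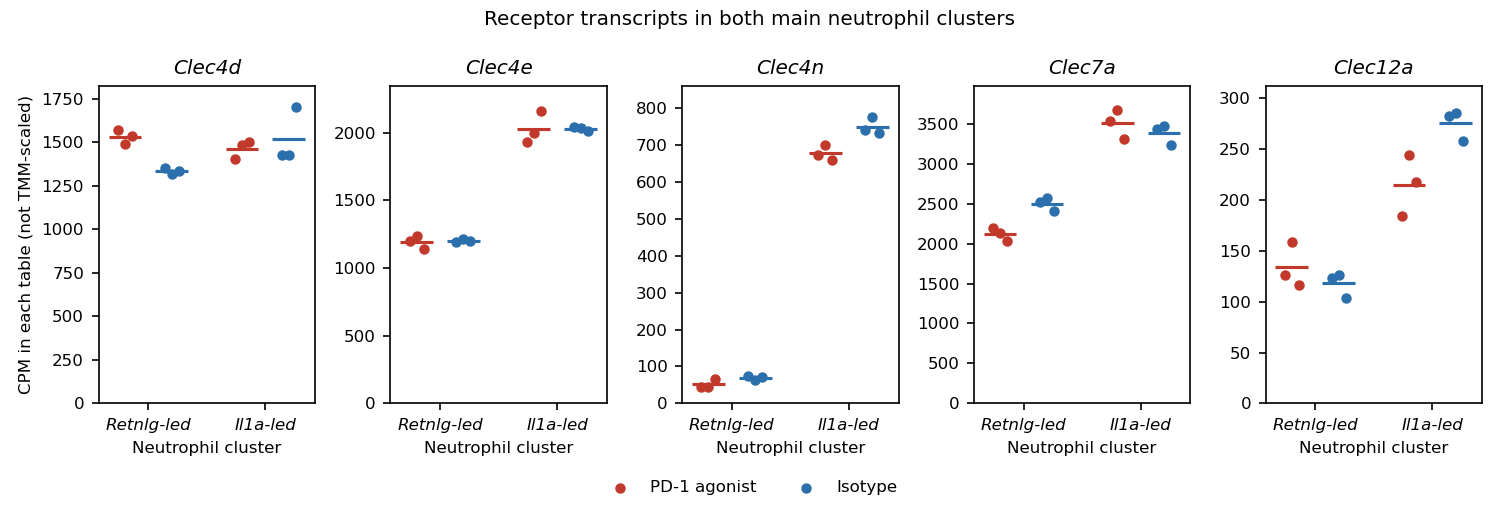
Level of 5 receptor genes in the Retnlg-led and Il1a-led neutrophil clusters, as unscaled CPM on linear axes from 0; points are the 3 tables of each treatment, which share cells and are not replicates, and bars their means. Clec4n lies between 43.6 and 75.0 CPM in the tables of the Retnlg-led cluster and between 659 and 775 CPM in those of the Il1a-led cluster.

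Clec7a encodes Dectin-1, the beta-glucan receptor. It was carried across phagocytes, with 2979 CPM (2938 to 3020) in interstitial macrophages, 2656 CPM (2621 to 2692) in neutrophils and 2474 CPM (2348 to 2605) in alveolar macrophages. cDC2 followed at 1403 CPM, then classical monocytes at 864 CPM and nonclassical monocytes at 778 CPM, migratory dendritic cells at 602 CPM and cDC1 at 275 CPM. The pDC had 18.9 CPM (12.4 to 27.7), beside 22.4 CPM in T, NK and B cells together. Interstitial macrophages differed among themselves: the cluster led by Gpnmb, Slc7a2 and Inhba had 4565 CPM of Clec7a, against 1991 CPM in the cluster led by Ccl8 and the complement genes C1qa, C1qb and C1qc, and 2156 CPM in the cluster led by Cxcl9. GENCODE M21 lists Clec7a as a polymorphic pseudogene, a gene intact in some mouse strains only.

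The last activating receptor, Clec9a, encodes DNGR-1, with which cDC1 sense actin filaments of dead cells. Its highest level was in cDC1 at 168 CPM (141 to 200), ahead of pDC at 66.3 CPM (53.4 to 81.4) and cDC2 at 19.0 CPM (13.6 to 25.7), with no overlap. It was detected in 47.3% of cDC1 and 22.0% of pDC, and in none of 4631 T cells, which allows a level of up to 0.197 CPM (3 counts). The cDC1 class separated from cDC2 at a finer clustering that was chosen after Clec9a levels had been seen, so its level in cDC1 is a description.

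Among the inhibitory receptors, Clec4a2, which encodes DCIR, was highest in interstitial macrophages at 195 CPM (184 to 205) and alveolar macrophages at 162 CPM (131 to 198), with overlapping intervals. Classical monocytes had 125 CPM (112 to 139), neutrophils 65.8 CPM, and nonclassical monocytes (47.6 CPM, 39.5 to 56.7) and cDC2 (47.6 CPM, 38.9 to 57.8) had overlapping intervals. No count was seen in 291 pDC, which allows up to 2.18 CPM. The interstitial cluster led by Ccl8 had 285 CPM, against 102 CPM in the cluster led by Gpnmb.

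Clec12a encodes MICL, an inhibitory receptor for uric acid crystals. It was spread across most myeloid classes, with 246 CPM (228 to 265) in classical monocytes, 242 CPM (231 to 254) in interstitial macrophages, 185 CPM in neutrophils, 157 CPM (142 to 173) in nonclassical monocytes, 141 CPM (116 to 170) in cDC1 and 125 CPM (107 to 145) in pDC. The first pair overlapped, and so did cDC1 with both of its neighbours. cDC2 (46.2 CPM, 37.6 to 56.2) and migratory dendritic cells (40.6 CPM, 31.3 to 51.7) were lower. Clec12a ran against Clec7a among macrophages: the cluster led by Ccl8 had 347 CPM of Clec12a and that led by Gpnmb 100.3 CPM, the reverse of their order for Clec7a.

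Clec4a1 and Clec4a3, close relatives and neighbours of Clec4a2, had their highest levels in nonclassical monocytes. Clec4a1 had 521 CPM (493 to 549) in nonclassical monocytes, 359 CPM (337 to 382) in classical monocytes, 174 CPM in interstitial macrophages and 13.8 CPM (5.94 to 27.1) in alveolar macrophages. Clec4a3 had 793 CPM (759 to 828) in nonclassical monocytes, 488 CPM (462 to 515) in classical monocytes, 473 CPM (457 to 489) in interstitial and 444 CPM (391 to 501) in alveolar macrophages, the last 3 overlapping. Alveolar macrophages thus kept Clec4a3 near the level of the other macrophages and had little Clec4a1. Over 26 values (13 classes in 2 libraries that share their clustering), both genes followed each other with a Pearson r of 0.974 on log2(CPM + 1). Among genes other than the 10 receptors, Csf1r, the macrophage growth factor receptor, followed both most closely, with an r of 0.970 for Clec4a1 and 0.981 for Clec4a3.

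Clec10a encodes MGL1, which binds galactose-type sugars. Its levels in pDC, at 241 CPM (216 to 268), and cDC2, at 220.5 CPM (201 to 241), had overlapping intervals. Classical monocytes had 32.6 CPM, cDC1 28.2 CPM and interstitial macrophages 27.3 CPM, and none of the alveolar macrophages or basophils had a count, which allows up to 5.16 and 3.95 CPM there. Clec10a shares 15.7% of its 31-base words with its neighbour Mgl2, and 29.2% in the last 500 bases of the transcript, so counts could be split between both genes. Mgl2 itself had 481 CPM in cDC2 but 21.8 CPM (14.7 to 31.2) in pDC, under the Clec10a level there. Outside the named classes, the unnamed cluster led by Cd209d, Apod and Cd7 had 220 CPM (195 to 247) of Clec10a and 79.7 CPM (64.8 to 96.9) of Clec9a, both overlapping the pDC intervals.

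Genes of like pattern were sought for each receptor over the same 26 values. The closest were C5ar1, the complement C5a receptor (r = 0.948), and Cebpb (r = 0.936) for Clec4e, Slc7a11 (r = 0.909) and Mcl1 (r = 0.907) after the unnamed model Gm37498 (r = 0.920) for Clec4d, and Sod2 (r = 0.909) for Clec4n. For the others they were Tgfbi for Clec4a2 (r = 0.951), Batf2 for Clec7a (r = 0.960), Mycl, a dendritic cell transcription factor, for Clec9a (r = 0.936, after Gm43914 at 0.966), Cds1 for Clec10a (r = 0.924) and Ifi207 for Clec12a (r = 0.948). Between the receptors, Clec4a1 and Clec4a3 were closest at 0.974, and Clec4d and Clec4e stood at 0.892.

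**Figure D4:**
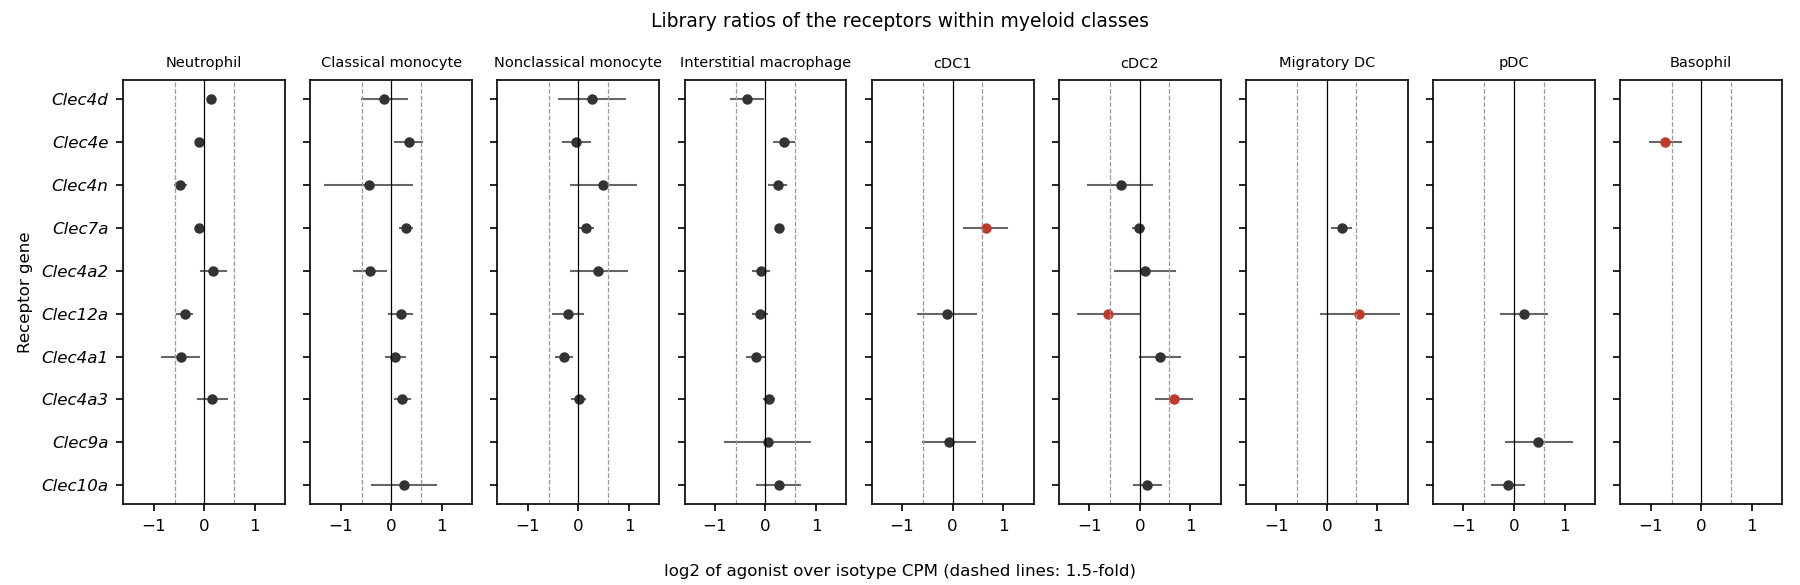
Log2 of agonist over isotype CPM (horizontal axis) of each receptor gene in 9 myeloid classes (panels), for genes with at least 50 counts; bars are 95% exact intervals of counting error and dashed lines mark 1.5-fold. The 5 red points, 3 to the right and 2 to the left, are past 1.5-fold; none is in neutrophils, monocytes or interstitial macrophages.

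The comparison of PD-1 agonist with isotype asks whether treatment was accompanied by other levels of these receptors. Over all kept cells, none of the 10 genes was past 1.5-fold, where 5.86% of 15127 features were higher and 2.24% lower by that much. The log2 ratios of agonist over isotype ran from -0.14 (Clec4n) to 0.22 (Clec9a). Clec4d was 203 CPM in the agonist library and 179 CPM in the isotype library, a log2 ratio of 0.18 (0.13 to 0.23). Neutrophils made up 21.3% (20.5% to 22.1%) of agonist and 18.9% (18.2% to 19.7%) of isotype cells. In such a pool, more cells of a class and more RNA per cell cannot be told apart from the total alone. Within all myeloid classes together, too, none of the 10 was past 1.5-fold, beside 5.70% of 12319 features higher and 2.57% lower.

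Within single classes, 58 pairs of a receptor and a class had at least 50 counts. Of these, 3 (5.17%) were at least 1.5-fold higher in the agonist library, beside 6.01% of all pairs of a feature and a class, and 2 (3.45%) were lower, beside 3.78%. The receptors were thus past this fold about as often as other genes.

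In neutrophils no receptor was past 1.5-fold (background 6.10% higher and 4.44% lower). Clec4n came closest, at 274.5 CPM in agonist and 381 CPM in isotype neutrophils, a log2 ratio of -0.47 (-0.585 to -0.36). The tables gave 267, 284 and 277 CPM with agonist and 397, 409 and 391.6 CPM with isotype, with no overlap. The mix of clusters moved with it: the Il1a-led cluster, which held 2352 of the 2602 Clec4n counts of neutrophils, was 31.1% (29.3% to 33.0%) of agonist neutrophils and 43.0% (40.7% to 45.2%) of isotype neutrophils. With the same cluster weights in both libraries, Clec4n was 317 CPM with agonist and 337 CPM with isotype, a log2 ratio of -0.09. Within the Il1a-led cluster the ratio was -0.115 (-0.23 to 0.00), and within the Retnlg-led cluster -0.29 (-0.67 to 0.09).

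Clec12a was also lower in agonist neutrophils. It was 162 CPM with agonist and 211 CPM with isotype (log2 ratio -0.38, -0.53 to -0.23), and -0.25 at equal cluster weights. In the Il1a-led cluster the tables gave 184, 244 and 218 CPM with agonist and 283, 286 and 258 CPM with isotype, without overlap, and the log2 ratio was -0.485 (-0.69 to -0.28). In the Retnlg-led cluster it was 0.07 (-0.18 to 0.33). Clec4a1 was the only receptor past 1.5-fold in the Il1a-led cluster (background 5.77% higher and 3.07% lower), with 34 agonist and 72 isotype counts and a log2 ratio of -0.77 (-1.40 to -0.16). Clec4d, Clec4e and Clec7a moved little in neutrophils as a whole, with log2 ratios of 0.13, -0.10 and -0.11, and none of the receptors was past 1.5-fold in the Retnlg-led cluster (background 5.85% higher and 4.96% lower).

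Monocytes showed no receptor past 1.5-fold. In classical monocytes (background 5.69% higher and 3.9% lower) the 9 receptors with enough counts ran from -0.44 for Clec4n, on 51 counts, to 0.345 (0.07 to 0.62) for Clec4e. Neutrophil markers summed to 1342 CPM (904 to 1684 over tables) in agonist and 862 CPM (798 to 895) in isotype classical monocytes, with 2 of 8 tested of 15 higher and Ltf at 0, and their part in the Clec4e value was not tested. Clec4a2 was 107 CPM with agonist and 143 CPM with isotype (-0.41, -0.73 to -0.10), and the tables did not overlap, at 109, 108 and 96.9 CPM with agonist and 139, 161 and 155 CPM with isotype. In nonclassical monocytes (background 6.24% higher and 3.95% lower) the 8 receptors ran from -0.28 for Clec4a1 to 0.48 for Clec4n, and Clec4a1 was lower in every agonist table, at 502, 447 and 491 CPM against 531, 583 and 606 CPM in isotype tables.

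In interstitial macrophages, where all 10 receptors had at least 50 counts, none was past 1.5-fold (background 4.61% higher and 2.82% lower). Clec7a was 3282 CPM with agonist and 2745 CPM with isotype, a log2 ratio of 0.26 (0.22 to 0.30), and its 3 agonist tables (3248, 3224 and 3195 CPM) lay above the 3 isotype tables (2994, 2528 and 2719 CPM). The clusters made up different shares of the class, with 189 of 466 agonist and 188 of 534 isotype cells in the Gpnmb-led one, 74 and 120 in the Cxcl9-led one and 203 and 226 in the Ccl8-led one. Within clusters the log2 ratio of Clec7a was 0.16 (0.11 to 0.21) in the Gpnmb-led, 0.31 (0.21 to 0.42) in the Cxcl9-led and 0.24 (0.16 to 0.31) in the Ccl8-led cells. In the class as a whole, Clec4e (0.36, 0.16 to 0.55) and Clec4n (0.24, 0.07 to 0.41) were also higher, and Clec4d was lower (-0.37, -0.69 to -0.05). Past 1.5-fold were Clec4e in the Ccl8-led cluster (0.66, 0.16 to 1.17; background 5.51% higher and 4.45% lower) and both Clec4e (0.97, 0.41 to 1.54) and Clec4n (0.825, 0.39 to 1.26) in the Cxcl9-led cluster (background 7.44% higher and 5.38% lower). No receptor was past it in the Gpnmb-led cluster (background 6.06% higher and 3.82% lower).

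Neutrophil transcripts moved the same way as Clec4e in these macrophages. The 15 neutrophil markers summed to 464 CPM in agonist macrophages (439 to 475 over tables) and 306 CPM in isotype macrophages (275 to 326), and 4 of the 7 with enough counts were past 1.5-fold, all higher. Ly6g, a defining neutrophil marker, was at 0 in both. In the Ccl8-led cluster the sum was 393 CPM (328 to 408 over tables) with agonist and 297 CPM (261 to 298) with isotype. In the Cxcl9-led cluster it was 589 CPM (447 to 634) and 378 CPM (337 to 383). Clec4d, the most neutrophil-bound of the receptors, was lower in agonist macrophages. The part of neutrophil RNA in the Clec4e and Clec4n ratios was not tested. In the unnamed cluster led by Cxcl10, Serpina3g and Cxcl9, chosen after its values were seen, Clec4e had 27 agonist and 125 isotype counts (log2 ratio -1.43, -2.08 to -0.82; background 6.82% higher and 5.74% lower), and the neutrophil markers summed to 593 CPM with agonist (560 to 614 over tables) and 1051 CPM with isotype (704 to 1089), with 2 of 6 tested lower and Ly6g, Ngp and Ltf at 0.

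In basophils the only receptor with at least 50 counts was past 1.5-fold (background 8.83% higher and 6.60% lower). Clec4e was 389 CPM (331 to 453) in agonist basophils and 635 CPM (553 to 725) in isotype basophils, a log2 ratio of -0.71 (-1.01 to -0.41). The single tables overlapped, at 551, 609 and 435 CPM with agonist and 429, 813 and 652 CPM with isotype, and without the second isotype table the ratio was -0.28. The agonist library value lay under each of its tables, which are unscaled and can hold the same barcode. A single cell held 17.8% of the agonist counts, and another 12.6% of the isotype counts. The share of basophils with a Clec4e count after thinning was 17.1% (11.4% to 24.2%) with agonist and 22.4% (15.2% to 31.1%) with isotype, also overlapping. The sum of the neutrophil markers moved the other way, with 2021 CPM (1705 to 2378 over tables) with agonist and 1529 CPM (1455 to 1972) with isotype. Over both libraries Mxd1 made up 1255.5 of 1799.6 CPM of this sum, so the sum mostly follows that gene. Of 4 tested markers 2 were higher, S100a9 (1.80) and S100a8 (0.91), 1 was lower, and Ly6g was at 0. Lyz2, outside this list, was at 2.97, so its basophil level over both libraries came mostly from the agonist library.

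cDC2 held a called ratio in each direction, with 7 receptors tested (background 7.01% higher and 4.85% lower). Clec4a3 was 169 CPM (146 to 194) in agonist and 105 CPM (86.5 to 127) in isotype cDC2, a log2 ratio of 0.68 (0.33 to 1.03). It was 199, 158 and 164 CPM in agonist tables and 99.5, 94.2 and 80.2 CPM in isotype tables, without overlap. A count was found in 45.5% (38.0% to 53.1%) of agonist and 34.5% (26.9% to 42.7%) of isotype cDC2, but after thinning in 11.4% and 11.5%. Markers of interstitial macrophages summed to 279 CPM (255 to 327 over tables) with agonist and 201 CPM (163 to 214) with isotype, with 2 higher and 1 lower of 4 tested of 14 and Folr2, Lyve1 and Cbr2 at 0. Those of nonclassical monocytes summed to 633 CPM (626 to 736) with agonist and 499.8 CPM (370 to 658) with isotype, with 1 of 5 tested of 10 higher. Their part in the Clec4a3 ratio was not tested. With all cells kept, including those outside the authors' filter, the ratio was 0.27.

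Clec12a was 36.9 CPM in agonist and 56.6 CPM in isotype cDC2 (log2 ratio -0.62, -1.23 to -0.02), on 42 and 58 counts. The tables overlapped, at 38.1, 40.8 and 29.6 CPM with agonist and 34.5, 68.0 and 30.9 CPM with isotype, and the ratio was 0.004 without the second isotype table. In migratory dendritic cells (background 8.01% higher and 5.52% lower) Clec12a was 49.3 CPM with agonist and 31.6 CPM with isotype (0.64, -0.12 to 1.42), on 40 and 25 counts, so the interval included 0. The tables gave 64.8, 49.8 and 54.0 CPM with agonist and 31.8, 33.2 and 41.8 CPM with isotype, without overlap, while the share of cells with a count after thinning was 2.99% (0.819% to 7.47%) with agonist and 5.39% (2.19% to 10.8%) with isotype. The interstitial macrophage markers summed to 160 CPM (44.1 to 293 over tables) in agonist and 39.2 CPM (31.8 to 47.7) in isotype migratory cells, with 1 of 1 tested of 14 higher and Folr2, Cd163, Lyve1, Pf4, Cbr2 and Gpnmb at 0. Their part in the ratio was not tested.

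In cDC1 (background 9.77% higher and 6.75% lower) Clec7a was 329 CPM with agonist and 209 CPM with isotype, a log2 ratio of 0.65 (0.24 to 1.08). The tables overlapped, at 432, 262 and 267 CPM with agonist and 334, 227 and 169 CPM with isotype. The direction depended on how cells were weighed: averaged cell by cell, the level was 285 CPM with agonist and 346 CPM with isotype, and 45.2% (32.5% to 58.3%) of agonist and 54.0% (39.3% to 68.2%) of isotype cDC1 had a count. Classical monocyte markers summed to 1304 CPM (748 to 1524 over tables) in agonist and 803 CPM (686 to 966) in isotype cDC1, with 4 of 5 tested of 9 higher. Neutrophil markers summed to 289 CPM (290.1 to 325 over tables) with agonist and 591 CPM (209 to 998) with isotype, with 2 of 2 tested of 15 lower and Ly6g at 0. The part of either list in the Clec7a ratio was not tested. The Clec9a interval in cDC1 included 0, at 164 CPM with agonist and 173 CPM with isotype (-0.07, -0.59 to 0.45). In pDC (background 6.53% higher and 4.22% lower) none of the 3 receptors tested was past 1.5-fold, with Clec9a at 0.48 (-0.155 to 1.14) and Clec10a at -0.11 (-0.43 to 0.21).

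**Figure D5:**
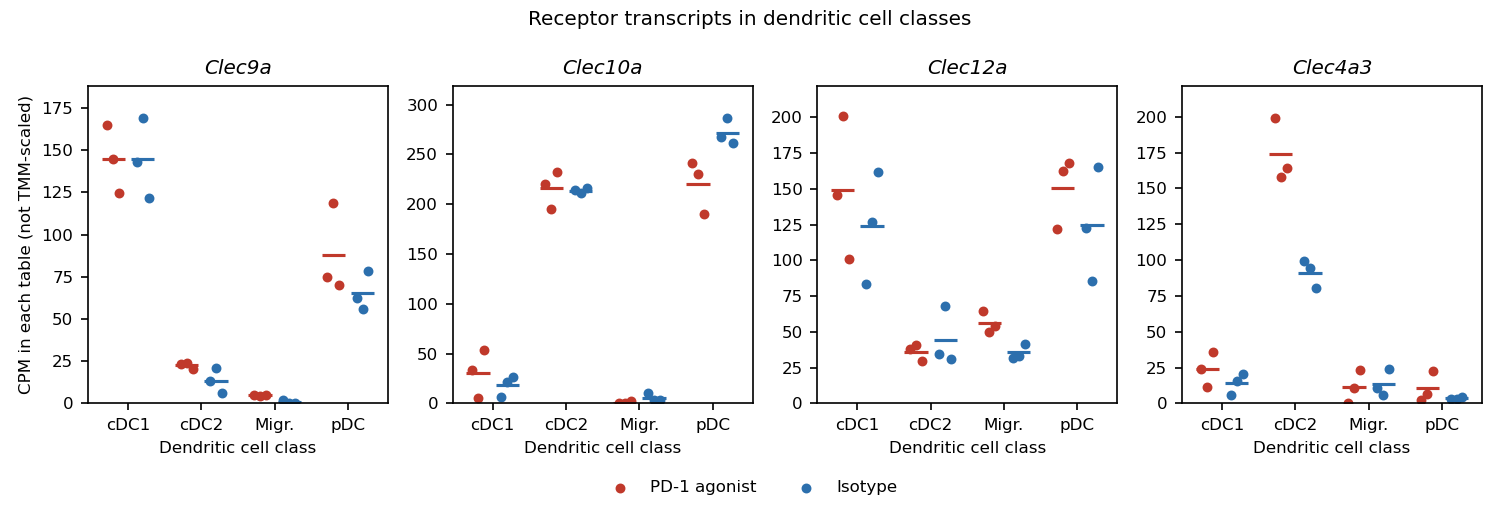
Level of 4 receptor genes in 4 dendritic cell classes, as unscaled CPM on linear axes from 0; points are the 3 tables of each treatment, which share cells and are not replicates, and bars their means. Clec9a is highest in cDC1, Clec10a in pDC and cDC2, and Clec4a3 in cDC2 lies at 158 CPM or more in agonist tables and under 100 CPM in isotype tables.

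In the lymphoid classes, none of the receptors with at least 50 counts was past 1.5-fold. T cells had 4 such receptors (background 5.24% higher and 2.56% lower), with log2 ratios of 0.16 (Clec7a) to 0.46 (Clec4e). B cells had 2 (background 4.77% and 2.56%), NK cells 1 (background 5.22% and 2.6%) and type 2 innate lymphoid cells none (background 10.6% and 8.95%). The 14 unnamed clusters pooled had all 10 (background 6.28% and 2.77%), from -0.42 for Clec4d to 0.15 for Clec7a, and none was past 1.5-fold in the pool, although single unnamed clusters held values past it, such as Clec4e in the Cxcl10-led one.

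Genes of the receptors' signalling path were counted from lists chosen by role. Of 18 shared adaptors and kinases, among them Fcer1g, Syk, Card9, Bcl10 and Malt1, none was past 1.5-fold in all kept cells or in the myeloid classes together, and their median log2 ratio in myeloid classes was 0.0665, beside -0.000255 for all features tested. None of the 8 inhibitory genes, such as the phosphatase genes Ptpn6 and Inpp5d, was past it in either, with a median of 0.0162 in myeloid classes. Of 13 output genes tested in myeloid classes (median 0.0564), Il12b, a subunit of interleukin 12, was past 1.5-fold with a log2 ratio of 1.85 (1.22 to 2.52) on 98 agonist and 27 isotype counts. Among single classes Il12b was past it only in migratory dendritic cells, at 1.84 (background 8.01% higher and 5.52% lower). Of the 5 output genes tested in that class, 2 were lower. Of 16 other C-type lectin receptors tested in the myeloid classes together (median -0.111), Cd209a, itself one of the cDC2 markers, was past 1.5-fold at 0.75 (0.56 to 0.93). No single named class had Cd209a past 1.5-fold, and in cDC2 none of the 11 tested was. In the unnamed clusters pooled Cd209a was at 0.68, where 4 of 15 tested were higher and 1 lower (background 6.28% higher and 2.77% lower). Neutrophils and interstitial macrophages had no gene of these 4 lists past 1.5-fold.

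The monocyte and dendritic classes in which a receptor peaked held a few. In classical monocytes (background 5.69% higher and 3.9% lower) 1 of 17 signalling genes was past 1.5-fold upward, 1 of 8 inhibitory genes downward, 3 of 8 output genes downward and 1 of 4 other lectin receptors upward. The adaptor gene Card9 was at 0.71 with an interval that included 0 (-0.09 to 1.54), the phosphatase gene Ptpn22 at -0.64 (-1.23 to -0.07) and the mannose receptor gene Mrc1 at 1.12 (0.36 to 1.91). The output genes Ccl4 (-1.135, -1.33 to -0.94), Il6 (-0.75, -1.19 to -0.32) and Ccl3 (-0.635, -1.07 to -0.20) were lower there in the agonist library. In nonclassical monocytes (background 6.24% higher and 3.95% lower) 2 of 8 output genes were past it, Ccl4 higher at 0.96 (0.64 to 1.29) and Il6 lower at -0.89 (-1.602 to -0.19). In pDC (background 6.53% higher and 4.22% lower) 2 of 5 output genes were higher, the chemokine genes Ccl3 (1.24, 0.47 to 2.08) and Ccl4 (0.885, 0.74 to 1.03). Of genes induced by cell stress, 2 of 3 tested were lower in agonist pDC, Dusp1 at -0.86 and Fos at -0.72, and 2 of 4 were lower in agonist nonclassical monocytes, Hspa1b at -1.22 and Jun at -0.65. Their part in the output genes was not tested. cDC2, where no receptor peaked, are given after their values were seen: 4 of 9 output genes were lower with agonist (background 4.85% lower), namely Ccl3 (-1.345, -2.16 to -0.58), Il6 (-1.11, -1.75 to -0.49), Egr2 (-0.92, -1.79 to -0.08) and Ccl4 (-0.81, -1.03 to -0.59), so Ccl3 and Ccl4 had opposite signs in cDC2 and pDC. The signalling gene Traf6 was also lower in cDC2 (-0.84, -1.61 to -0.10), 1 of 16. Of the stress genes 1 of 4 tested was lower in cDC2, Hspa1b at -0.71, and its part in the output genes was not tested. In cDC1 (background 9.77% higher and 6.75% lower) 1 of 4 inhibitory genes was past 1.5-fold, Tnfaip3, which restrains NF-kappaB signalling, at -0.995 (-1.71 to -0.30), and so was the 1 other lectin receptor tested, Clec2d, at -0.64 with an interval that included 0 (-1.42 to 0.12).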

How the data were processed

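Single-cell RNA libraries of sorted live CD45+ lung cells were deposited as 6 tables, 3 per treatment, with 1 row per cell record and 20882 gene columns. The authors deposited expected counts per cell and gene, unscaled, of which 1.05% of those above 0 are not whole (tolerance 1e-06). Per the file headers, each record also carries a count of genes detected and, in percent, its mitochondrial and ribosomal reads. Partek and the build mm10 are named in the submitters' processing notes, and the aligner is not named in the labels or headers. The treatment column of the tables calls the isotype group untreated.

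Each barcode was taken once per treatment, from the record with the highest total. Cells passing the authors' filter were kept, and Scrublet (threshold 0.25) removed 944 agonist and 807 isotype doublets. Cells were clustered with scanpy 1.11.5 and leidenalg 0.10.2 (2000 variable genes without the 10 receptors, 30 components, resolution 1), and monocyte, macrophage and dendritic clusters again at resolution 2. Clusters were named from 23 marker lists where the best score was at least 1 and led by at least 0.5. Counts were summed per library and class, rounded and scaled by edgeR 4.0.16 TMM factors; a ratio needed 50 counts over both libraries and 50 cells in each, and 1.5-fold set a call. Single-table CPM is unscaled and uses each table's own records of the kept cells, so a barcode may count in several tables. Thinned shares leave out cells under 1000 counts. All 10 receptors are named, and a gene of the other lists is named where it was past 1.5-fold in the myeloid classes together or in a class where a receptor peaked, up to 4 per list. The ratio and its interval were checked on simulated counts. Alternatives include DESeq2 1.42.0 size factors.

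The receptors and lists were chosen with earlier results of these data known. Several set-ups were compared with the receptors' levels in view: 1 round, a second round at resolution 1 or 2, and a further split of 1 cluster that was not adopted. The second round, its resolution and the naming thresholds were chosen after these were seen, and clusters of a foreign lineage were then set to unnamed.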

Additional observations from a re-analysis of the deposited data

Results flagged for a closer look

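Clec12a, the inhibitory receptor MICL, stood in opposite directions in 2 dendritic cell classes. Its log2 ratio of agonist over isotype was -0.618 in cDC2 and 0.639 in migratory dendritic cells. The interval of counting error was -1.226 to -0.020 in cDC2 and -0.118 to 1.421 in migratory cells, which includes 0. Without the second isotype table the cDC2 ratio was 0.004, and with all cells kept, including those outside the authors' filter, the migratory ratio was -0.029. The difference between both classes was not tested, since each treatment is 1 library. The cDC2 ratio rests on 42 agonist and 58 isotype counts and the migratory ratio on 40 agonist and 25 isotype counts.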

How the results depend on the processing

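Of 1450 ratios recomputed under the alternatives, 1392 stayed inside the counting interval of the main ratio, 55 moved outside it and 3 reversed. A change of sign was counted as a reversal only where the main ratio was past 1.5-fold. Smaller ratios could change sign inside their interval. The reversed ones were Clec12a in cDC2 without isotype replicate 2 (0.004, against -0.707 without agonist replicate 2), Clec12a in migratory dendritic cells with all cells kept (-0.029) and Clec7a in cDC1 as the mean of per-cell shares (-0.278). For these the cause was not tested. The number of receptor and class pairs past 1.5-fold was 5. It was 2 with doublets kept, 2 with the record of lowest total, 8 with all cells kept, 3 with the mean of per-cell shares and 36 with no filter on low counts, which adds pairs with few counts. Leaving out 1 table at a time gave 1 (without isotype replicate 2) to 5. The count over all kept cells was 0 in each alternative run. The highest class held for 8 to 10 of the 10 receptors. Clec9a was highest in pDC with a second round at resolution 1 or with 1 round, and in cDC2 with doublets kept, as Clec10a was. cDC1 was not found as a class with doublets kept, with all cells kept, with a second round at resolution 1 or with 1 round, and gave no value there; pDC were not found with doublets kept, nor cDC2 with a second round at resolution 1. The alternatives of the second round, equal neutrophil cluster weights and the mean of per-cell shares for ratios were chosen after seeing the data. No paired analysis was possible because the tables of a treatment share cell barcodes and form 1 library, so the replicate numbers mark no separate mice.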

Other observations

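Among unnamed clusters, the one led by Mmp12, Dcstamp and Mgl2 had 3533 CPM of Clec7a, the gene for Dectin-1. The unnamed cluster led by Ccl3, Csf1 and Mmp9 had 505 CPM of Clec4d, and the 2 unnamed clusters led by Retnlg and S100a9 had 281 and 491 CPM, all under the 1411 CPM of the neutrophil class. These clusters scored best for the neutrophil list, with 12 to 15 of its 15 markers detected, and were left unnamed for those genes. Their Clec4d counts are not part of the neutrophil share.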
